A study of Mus musculus with 11 samples.

Results

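The 34 genes described here mark blood and lymphatic vessels or encode the growth factors that act on them. They were chosen by gene symbol, and every array feature whose platform symbol was 1 of the 34 was used. All 34 were measured in both deposited value tables, among 16351 genes that the tables share. The set holds 14 surface and junction markers of endothelium, 7 receptors and co-receptors, 5 endothelial transcription factors and 2 lymphatic markers, here called the 28 vessel genes, and 6 angiogenic growth factors.

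The samples were 11 mammary tumours of MMTV-Neu+/- mice, which carry a Neu (ErbB2) transgene that the mouse mammary tumour virus promoter drives in mammary epithelium. In 5 the labels give treatment with dimethylbenzanthracene (DMBA), a carcinogen, and 6 are labelled untreated. Mice of both groups carry the transgene, and the series title says that they were female. The labels state no ages, doses or times, and they do not say whether each tumour came from its own mouse. Tumours are numbered within a group only to name them, and the titles of DMBA tumours 3 and 4 share a number that is not explained.

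Every tumour was hybridised on a 2-colour array against RNA of whole mouse, and each value is the log2 ratio of tumour over that reference. A value below 0 therefore places a gene under its level in a pool of all organs, not under normal mammary gland. Since the dye field of the tumour channel names a kit, the direction was read from genes of liver, skeletal muscle and brain, whose list medians on single arrays lay between -4.24 and -1.48. The direction is thus likely rather than stated, and every sign below rests on it. Within a table the arrays correlated at r = 0.789 to 0.856 for the DMBA group and 0.886 to 0.941 for the untreated group, over all array features. The DMBA tumours were all on arrays of 45220 features and the untreated tumours all on arrays of 22575, so treatment and array design cannot be told apart and no test was made between the groups.

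Endothelial cells line blood vessels and hold together through adherens and tight junctions. Growth factors of the VEGF family, made by surrounding cells under hypoxia and by stroma, bind receptors on these cells and drive sprouting, while angiopoietins act through the Tie receptors on vessel stability. Ets and SoxF transcription factors maintain the endothelial state. Lymphatic endothelium arises from venous endothelium under the control of Prox1 and responds to VEGF-C.

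Most vessel genes lay below the whole mouse reference in both groups of tumours. Of the 28 vessel genes, 24 were lower in DMBA-treated tumours and 22 in untreated tumours, and 0 were higher in either (limma, adjusted p under 0.05, Benjamini-Hochberg over all genes of the table). Over all genes of the tables, 31.7% were called lower and 26.1% higher in the DMBA group, and 32.1% and 28.8% in the untreated group. The median log2 ratio of the 28 was -1.11 in DMBA-treated and -1.20 in untreated tumours, beside medians over all genes of -0.02 and 0. Over all genes, 57.8% were called in either direction in the DMBA group and 60.9% in the untreated group. Of the 6 growth factors, 3 were lower, 1 was higher and 2 were not called in the DMBA group, while 1 was lower, 1 higher and 4 not called in the untreated group.

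At a mean at least 2-fold below the reference, 15 of the 28 vessel genes were called in DMBA-treated tumours, where 18.8% of all genes were, and 16 in untreated tumours, where 15.6% were. Values below 0 on every array of the group were found for 23 of the 28 in the DMBA group, against 32.1% of all genes, and for 20 of the 28 in the untreated group, against 29.1%. Both groups share the reference, so their calls are given side by side and are not independent. Called lower in both were 20 of the 28 vessel genes, against 24.8% of all shared genes, and 18 of the 28 were below 0 in all 11 tumours, against 23.1%. Whether such low ratios stand for fewer endothelial cells or for less RNA per endothelial cell cannot be told apart in bulk RNA. Where 8 of the 34 genes had different calls in the groups (Cdh5, Plvap, S1pr1, Flt1, Nrp2, Prox1, Angpt1 and Vegfb), the difference itself was not tested.

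**Figure D1:**
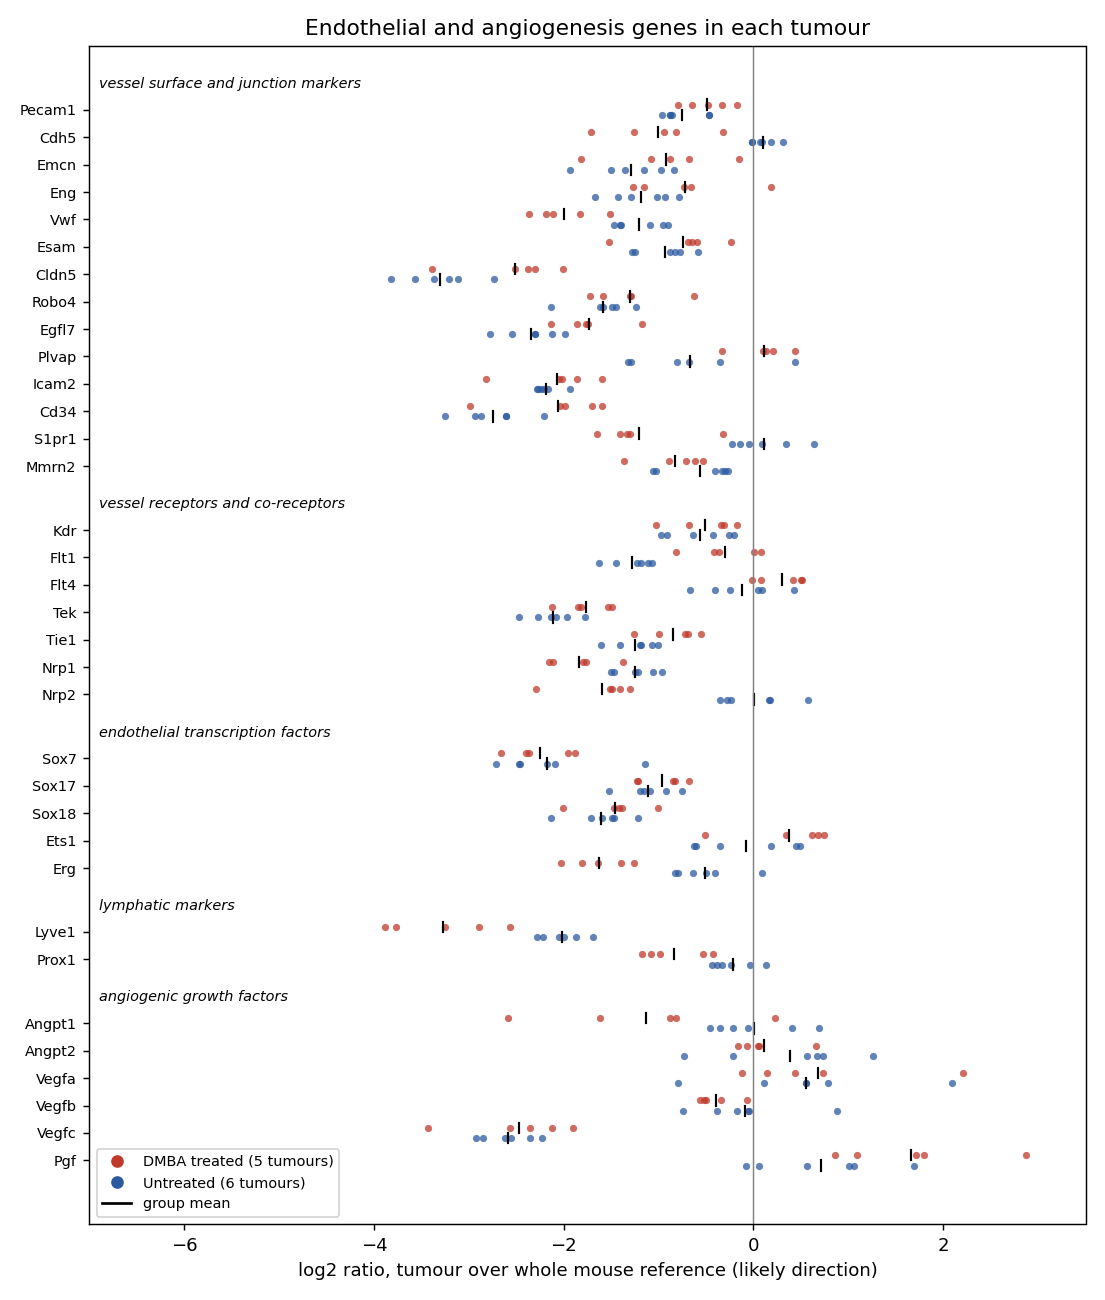
Log2 ratio of tumour over whole mouse reference (horizontal axis, likely direction) for each of the 34 genes, grouped by role. Each point is 1 tumour (red, 5 DMBA treated; blue, 6 untreated) and each black bar a group mean; most vessel genes lie left of 0, from Lyve1 and Cldn5 at the far left to Plvap, Flt4 and Ets1 about 0, while Pgf and Vegfa lie mostly to the right.

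Among the surface and junction markers, 13 of 14 were lower in DMBA-treated tumours and 12 of 14 in untreated tumours. The lowest was Cldn5, claudin-5, the main tight junction protein of endothelium. In DMBA tumours 1 to 5 its log2 ratio was -2.52, -2.01, -2.30, -2.37 and -3.38, and in the untreated tumours it ran from -3.83 to -2.73 with a median of -3.29. All 11 tumours were far below the reference, and the groups overlapped. The means were -2.52 ± 0.52 (SD, n = 5; limma adjusted p = 4.94e-05) and -3.30 ± 0.38 (SD, n = 6; adjusted p = 3.88e-08), which are 5.73-fold and 9.87-fold below the reference.

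Cd34, a sialomucin of small vessels and of haematopoietic progenitors, stood at -1.98, -1.60, -2.04, -1.70 and -2.99 in DMBA tumours 1 to 5 and between -3.25 and -2.20 in untreated tumours, with a median of -2.74. DMBA tumour 5 was again the lowest of its group. The means were -2.06 ± 0.55 (adjusted p = 0.00017) and -2.75 ± 0.36 (adjusted p = 1.07e-07). Icam2, an adhesion molecule present on resting endothelium, was at -2.07 ± 0.46 and -2.18 ± 0.13. Egfl7, a secreted protein of endothelial cells that supports tube formation, was at -1.73 ± 0.35 and -2.34 ± 0.29. Robo4, an endothelial receptor that limits leakage, was at -1.31 ± 0.42 and -1.59 ± 0.30. These 3 genes were called lower in both groups, with adjusted p between 2.26e-08 and 0.000574 (limma).

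The classical pan-endothelial marker Pecam1 (CD31), an adhesion molecule at cell contacts, lay only a little below the reference. Its values were -0.34, -0.17, -0.48, -0.65 and -0.80 in DMBA tumours 1 to 5, and in untreated tumours they ran from -0.97 to -0.46 with a median of -0.87. Every tumour was below 0 and the groups overlapped, at -0.49 ± 0.25 (limma adjusted p = 0.0121) and -0.75 ± 0.23 (adjusted p = 0.000165). The first listed of its 11 DMBA features alone was not called (-0.40, limma adjusted p = 0.0797). Of the 11, 10 listed under the RefSeq mRNA had means between -0.77 and -0.40, while 1 listed under another cDNA had a mean of 0.46. Emcn, endomucin, a sialoprotein of capillaries and veins, was at -0.92 ± 0.61 and -1.29 ± 0.40. Esam, a tight junction adhesion molecule shared with platelets, was at -0.74 ± 0.47 and -0.93 ± 0.28. Mmrn2, an extracellular matrix protein of endothelium, was at -0.82 ± 0.33 and -0.57 ± 0.38. All 3 were called lower in both groups.

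Eng, endoglin, a co-receptor for TGF-beta family ligands, was at -0.73 ± 0.57 in DMBA-treated tumours (limma adjusted p = 0.0246) and at -1.19 ± 0.33 in untreated ones (adjusted p = 3.34e-05). DMBA tumour 3 stood above 0 at 0.18, while the other 4 lay between -1.27 and -0.65. The call in the DMBA group did not hold without DMBA tumour 1, 2, 4 or 5, where the adjusted p was 0.0548, 0.0641, 0.0808 and 0.0727.

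Vwf, von Willebrand factor, the clotting protein stored in endothelial cells and platelets, was at -2.0 ± 0.34 and -1.21 ± 0.25, and its groups did not overlap. Its features disagreed. In untreated tumours, 1 feature had a mean of -2.64 and the other of 0.23, and taking the first listed feature alone turned its sign (0.23, adjusted p = 0.126). In DMBA-treated tumours the feature for the first of these cDNAs had a mean of -2.81, that for the second -0.62, and a feature for the RefSeq mRNA -2.57. The gap between the groups for Vwf therefore includes a feature for which the untreated table has no counterpart. Taken by cDNA, the values for the first overlapped between the groups. Those for the second did not, at -0.90 to -0.45 in DMBA-treated and -0.27 to 0.51 in untreated tumours.

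Plvap, which forms the diaphragms of fenestrated capillaries, was the 1 surface marker not called in DMBA-treated tumours. Its 5 values there were 0.13, 0.44, 0.20, 0.10 and -0.33, so 4 of 5 lay above the reference (mean 0.11 ± 0.28, limma adjusted p = 0.507). In untreated tumours it ran from -1.33 to 0.44 with a median of -0.74, and tumour 6 alone lay above 0. The mean of -0.67 ± 0.66 was called lower (adjusted p = 0.0226), and the call was lost without untreated tumour 1, 4 or 5 (adjusted p = 0.0582, 0.0655 and 0.0737).

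Cdh5, VE-cadherin, the adherens junction protein of endothelium, and S1pr1, the receptor for sphingosine 1-phosphate that tightens vessel walls, were called lower in the DMBA group and not in the untreated group. Cdh5 stood at -1.26, -0.32, -0.82, -0.94 and -1.71 in DMBA tumours 1 to 5, and between -0.02 and 0.31 in untreated tumours, with a median of 0.08. Every DMBA tumour was below every untreated tumour. The means were -1.01 ± 0.52 (limma adjusted p = 0.00419) and 0.10 ± 0.13 (adjusted p = 0.313). S1pr1 stood at -1.65, -0.32, -1.30, -1.33 and -1.41, against -0.23 to 0.64 with a median of 0.02, again without overlap. Its means were -1.20 ± 0.51 (adjusted p = 0.00178) and 0.11 ± 0.33 (adjusted p = 0.47).

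The untreated values of Cdh5 varied little, with an SD larger than that of only 6.34% of genes in the table. The brightness behind these ratios was not used here, so whether values near 0 come from well measured features is unknown.

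Of 34 genes, 19 have entries among RefSeq promoter sequences (assembly GRCm38.p6), 26 promoters in all, and the 250 bases before each annotated start were searched on both strands. AGGAAG, a form of the core that Ets factors such as Erg and Ets1 bind, was found in 10 of the 26 promoters (38.5%), which belong to 9 genes, and in 29.5% of all 32851 promoters. The shorter core GGAA, which AGGAAG contains, was found in 22 of the 26 (84.6%) and in 93.4% of all promoters, so its presence says little. Among the genes with AGGAAG, those called lower in both groups were Cd34, Robo4, Tie1, Emcn, Eng, Egfl7, Nrp1 and Erg. The other gene with AGGAAG, Flt1, was called lower in the untreated group only. Of all 34 genes, 21 were called lower in both groups, against 24.8% of all shared genes. They include Kdr, Tek and Vegfc, in whose promoters AGGAAG was not found. A link between the motif and the ratios was not tested. The promoters of Cd34, Robo4 and Tie1, which each hold AGGAAG once, were picked as examples from the genes called lower in both groups. Each runs 5′ to 3′ in the direction of its gene and ends at the base before the start, and capitals mark the match, read as AGGAAG or, on the other strand, CTTCCT.
Cd34, chr1:194938571-194938820, plus strand: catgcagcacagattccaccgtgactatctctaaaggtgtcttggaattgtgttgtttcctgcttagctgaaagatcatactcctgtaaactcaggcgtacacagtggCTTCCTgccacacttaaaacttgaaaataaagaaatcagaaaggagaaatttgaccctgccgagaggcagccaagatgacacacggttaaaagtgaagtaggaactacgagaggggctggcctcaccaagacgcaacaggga
Robo4, chr9:37401722-37401971, plus strand: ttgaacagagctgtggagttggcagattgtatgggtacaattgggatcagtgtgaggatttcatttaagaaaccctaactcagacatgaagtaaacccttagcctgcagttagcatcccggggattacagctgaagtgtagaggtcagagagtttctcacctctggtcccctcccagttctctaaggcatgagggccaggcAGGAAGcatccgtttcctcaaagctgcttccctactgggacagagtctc
Tie1, chr4:118489850-118490099, minus strand: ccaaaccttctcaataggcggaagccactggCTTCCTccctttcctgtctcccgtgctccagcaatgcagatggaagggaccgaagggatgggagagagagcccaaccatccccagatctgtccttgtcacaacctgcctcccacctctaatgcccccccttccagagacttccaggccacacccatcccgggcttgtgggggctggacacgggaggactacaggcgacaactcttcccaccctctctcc
The match begins at position -142 from the start in Cd34, -49 in Robo4 and -219 in Tie1. A match describes these letters only. CGGAAG, another Ets core, was found in 1 of the 26 promoters (3.85%, Tie1) against 13.6% of all promoters. ACAAAG and ACAAT, letters that Sox factors bind, were found in 4 and 5 of the 26 (15.4% and 19.2%). Over all promoters they were found in 16.5% and 27.7%. ACGTG, also searched, was found in 1 of the 26 (3.85%, Vegfa) against 16.6% of all promoters.

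Of the 7 receptors and co-receptors, 5 were lower in each group. Tek (Tie2), the angiopoietin receptor, was among the lowest. Its values were -1.49, -1.53, -1.81, -1.85 and -2.12 in DMBA tumours 1 to 5 and ran from -2.47 to -1.77 with a median of -2.11 in untreated tumours. The 11 tumours lay in a narrow band, with means of -1.76 ± 0.26 (limma adjusted p = 2.86e-05) and -2.12 ± 0.24 (adjusted p = 1.33e-07). Tie1, the orphan partner of Tie2, was less far down at -0.84 ± 0.28 (adjusted p = 0.00138) and -1.25 ± 0.23 (adjusted p = 4.94e-06), again in every tumour.

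Kdr (VEGFR2), the main signalling receptor for VEGF-A, had a mean over its features of -0.51 ± 0.35 in DMBA-treated tumours (limma adjusted p = 0.0226) and of -0.57 ± 0.33 in untreated tumours (adjusted p = 0.00344). Its values were -0.17, -0.34, -0.68, -0.31 and -1.03 in DMBA tumours 1 to 5, and from -0.97 to -0.20 with a median of -0.53 in untreated tumours. All 11 lay below 0. Without DMBA tumour 3 the call in that group was lost (adjusted p = 0.0714). The DMBA table holds 20 features for Kdr. Of these, 10 listed under the RefSeq mRNA had means between -1.38 and -1.02, and 10 listed under another cDNA had means between -0.47 and 1.13. Those of the cDNA gave all 7 exact zeros among the features of the 34 genes. The RefSeq mRNA features alone gave -1.22 (adjusted p = 0.000395), while the first listed feature gave 0.02 (adjusted p = 0.974). The 10 cDNA features had a mean of 0.20. Both the size and the sign of the Kdr ratio in DMBA-treated tumours thus depend on which features are averaged. The 1 untreated feature is listed under the RefSeq mRNA too. With RefSeq mRNA features alone the group means, -1.22 and -0.57, lay farther apart than with all features. On single arrays those DMBA values ran from -1.69 to -0.84 and overlapped the untreated values.

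Flt1 (VEGFR1), which binds VEGF-A, VEGF-B and PlGF and acts in part as a decoy, was at -0.42, 0.01, -0.36, 0.08 and -0.82 in DMBA tumours 1 to 5, with 2 of 5 above 0 (mean -0.30 ± 0.36, limma adjusted p = 0.13). In untreated tumours it ran from -1.63 to -1.07 with a median of -1.21 (mean -1.28 ± 0.22, adjusted p = 3.63e-06). Here the DMBA tumours were the higher ones and no values overlapped. The gap shrank with the features used. Those 2 listed under the RefSeq mRNA gave -0.74 in DMBA-treated tumours, which was called lower (limma adjusted p = 0.00808). Their mean on single arrays ran from -1.47 to -0.35 and overlapped the untreated values. The median over features (-0.45, adjusted p = 0.00751) and the first listed feature (-0.61, adjusted p = 0.0178) were called lower too.

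Flt4 (VEGFR3), the receptor for VEGF-C on lymphatic and sprouting endothelium, was not called in either group, at 0.30 ± 0.25 (adjusted p = 0.074) and -0.13 ± 0.39 (adjusted p = 0.464) by limma. In the DMBA group it was above 0 in 4 of 5 tumours, and it was called higher where arrays were centred on the median of their genes (0.33, adjusted p = 0.0499).

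The neuropilins are co-receptors for VEGF and semaphorins. Nrp1 was lower in all 11 tumours, at -1.84 ± 0.31 (limma adjusted p = 3.93e-05) and -1.24 ± 0.22 (adjusted p = 4.28e-06). Nrp2, the form linked to lymphatic and venous vessels, stood at -1.30, -1.51, -1.40, -1.49 and -2.30 in DMBA tumours 1 to 5. In untreated tumours it lay between -0.36 and 0.58 with a median of -0.03, all above the DMBA values. The means were -1.60 ± 0.40 (adjusted p = 0.000172) and 0.01 ± 0.36 (adjusted p = 0.954). In the DMBA group this mean joins a feature of another cDNA at -2.98 and a feature of the RefSeq mRNA at -0.22. The latter alone was not called (limma adjusted p = 0.31). Its values ran from -0.83 to 0.32 and overlapped those of the untreated tumours.

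**Figure D2:**
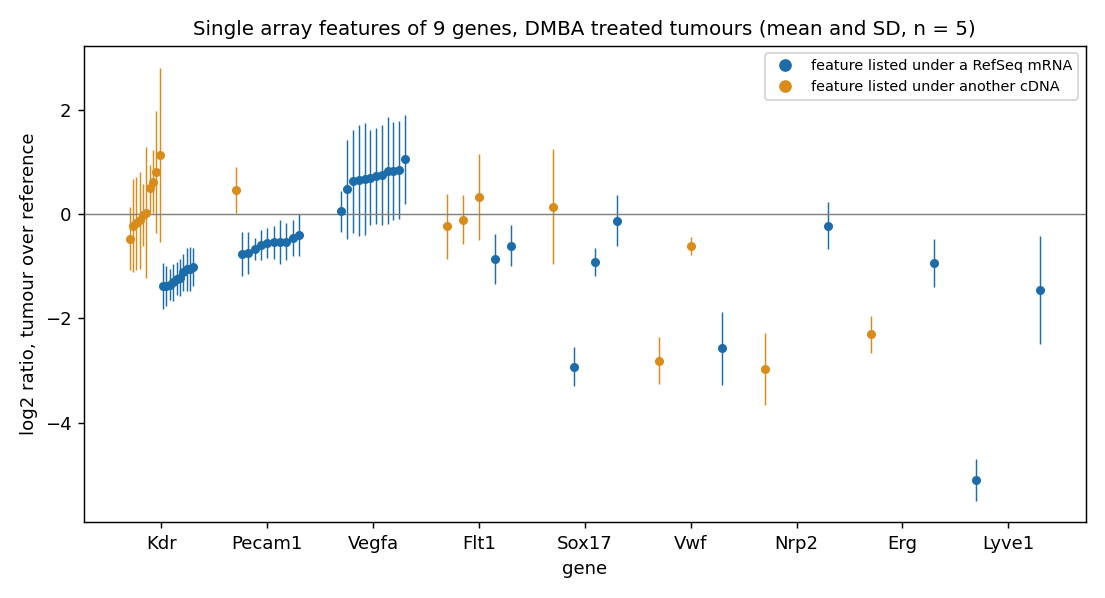
Mean log2 ratio and SD over the 5 DMBA-treated tumours (vertical axis) of each single array feature of 9 of the genes (horizontal axis), coloured by whether the feature is listed under a RefSeq mRNA (blue) or another cDNA (orange). Features of Vegfa have means between 0.05 and 1.05 and most of Pecam1 lie together, whereas those of Kdr, Flt1, Sox17, Vwf, Nrp2, Erg and Lyve1 are spread over more than 1 unit.

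Of the 5 transcription factors, 4 were lower in each group. The 3 SoxF genes, which act redundantly in vessel formation, were below 0 in all 11 tumours. Sox7 stood at -2.37, -1.95, -2.40, -1.88 and -2.66 in DMBA tumours 1 to 5 and from -2.72 to -1.15 with a median of -2.32 in untreated tumours. The groups overlapped, at -2.25 ± 0.33 (limma adjusted p = 1.71e-05) and -2.18 ± 0.55 (adjusted p = 6.83e-06). Sox18 was at -1.46 ± 0.36 and -1.60 ± 0.31, and Sox17, a gene of arterial endothelium, at -0.96 ± 0.25 and -1.11 ± 0.26, both called lower in each group. Features of Sox17 in the DMBA table ranged from -2.93 to 0.14, and the first listed one alone was not called (-0.13, adjusted p = 0.604).

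Erg, an Ets factor needed for endothelial junctions, stood at -1.40, -1.26, -1.81, -1.64 and -2.03 in DMBA tumours 1 to 5 and from -0.83 to 0.09 with a median of -0.57 in untreated tumours. Every DMBA tumour was lower than every untreated one, at -1.63 ± 0.31 (limma adjusted p = 6.89e-05) and -0.51 ± 0.34 (adjusted p = 0.0066). The RefSeq mRNA feature alone had a DMBA mean of -0.94, less than 1 unit from the untreated mean. Its DMBA values ran from -1.45 to -0.22 and overlapped those of the untreated tumours. Ets1, which endothelial cells share with lymphocytes and tumour cells, was not called in either group, at 0.37 ± 0.52 (adjusted p = 0.15) and -0.08 ± 0.51 (adjusted p = 0.718). DMBA tumour 5 at -0.51 was the only one of its group below 0, and without it Ets1 was called higher (0.60, adjusted p = 0.00625).

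Lyve1, the hyaluronan receptor of lymphatic capillaries that some macrophages carry too, had the lowest mean of the 34 genes in DMBA-treated tumours. Its values there were -3.25, -3.77, -3.88, -2.57 and -2.89, and in untreated tumours they ran from -2.29 to -1.69 with a median of -2.02. The groups did not overlap, at -3.27 ± 0.56 (limma adjusted p = 1.89e-05) and -2.02 ± 0.22 (adjusted p = 1.32e-07). Both DMBA features are listed under the RefSeq mRNA and had means of -5.09 and -1.45, on either side of the untreated mean. Prox1, the regulator of lymphatic identity, was at -0.84 ± 0.34 (adjusted p = 0.00227) and -0.22 ± 0.22 (adjusted p = 0.0886), and without untreated tumour 1 it was called lower there as well (-0.29, adjusted p = 0.0435). Its DMBA mean joins a feature of another cDNA at -1.45 with features of the RefSeq mRNA at -0.30 and -0.76, and the first listed feature alone was not called (-0.30, adjusted p = 0.118).

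The lymphatic growth factor Vegfc was the 1 growth factor called lower in both groups. It stood at -1.91, -2.35, -2.56, -2.13 and -3.43 in DMBA tumours 1 to 5 and from -2.93 to -2.23 with a median of -2.59 in untreated tumours. All 11 tumours were well below the reference, at -2.48 ± 0.59 (limma adjusted p = 8.9e-05) and -2.59 ± 0.27 (adjusted p = 4.81e-08), or 5.56-fold and 6.02-fold lower.

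Pgf, placental growth factor, a ligand of Flt1, was the 1 gene of the 34 called higher in both groups. Its values were 1.71, 1.80, 0.86, 1.09 and 2.87 in DMBA tumours 1 to 5 and ran from -0.08 to 1.69 with a median of 0.78 in untreated tumours. All DMBA tumours and 5 of 6 untreated ones lay above the reference, and the groups overlapped. The means were 1.67 ± 0.78 (3.17-fold, limma adjusted p = 0.00214) and 0.72 ± 0.67 (1.64-fold, adjusted p = 0.0179). Without untreated tumour 4 the call in the untreated group was lost (0.65, adjusted p = 0.0502).

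Vegfa, the chief growth factor for blood vessels and a hypoxia target, had a larger SD between tumours than any of the 28 vessel genes, in both groups. It stood at -0.12, 0.73, 0.44, 0.14 and 2.21 in DMBA tumours 1 to 5 and from -0.80 to 2.10 with a median of 0.56 in untreated tumours. DMBA tumour 5 and untreated tumour 6 were the highest of their groups, with the next at 0.73 and 0.79. With means of 0.68 ± 0.91 (limma adjusted p = 0.116) and 0.55 ± 0.94 (adjusted p = 0.137) it was not called in either group. Its SD exceeded that of 93.9% of genes in the DMBA table and of 97.9% in the untreated table. The 12 DMBA features of Vegfa all had means between 0.05 and 1.05. Without untreated tumour 3, the lowest, Vegfa was called higher in the untreated group (0.82, adjusted p = 0.0238).

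Angpt1, the Tie2 agonist made by mural and stromal cells, spread widely in DMBA-treated tumours, at -0.82, 0.23, -1.61, -0.88 and -2.59. The mean of -1.14 ± 1.05 was called lower (limma adjusted p = 0.0348), but not without DMBA tumour 1, 3, 4 or 5 (adjusted p = 0.0596, 0.0959, 0.0697 and 0.0715), nor with tumours 3 and 4 averaged (0.0759) or the first listed feature alone (-0.89, adjusted p = 0.0502). In untreated tumours it was at 0.00 ± 0.45 (adjusted p = 0.986).

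Angpt2, the context-dependent Tie2 ligand released by endothelium, was not called, at 0.11 ± 0.32 (adjusted p = 0.545) and 0.38 ± 0.72 (adjusted p = 0.185) by limma. Without untreated tumour 3 it was called higher in that group (0.60, adjusted p = 0.0254). Vegfb, a ligand of Flt1 linked to fat and muscle, was called lower in the DMBA group at -0.40 ± 0.20 (adjusted p = 0.0197) and was at -0.09 ± 0.54 in the untreated group (adjusted p = 0.695). Its DMBA call was lost without DMBA tumour 2, 3 or 4 (adjusted p = 0.054, 0.0671 and 0.0678) and with tumours 3 and 4 averaged (0.0602). Its 2 DMBA features had means of -0.71 and -0.09, and the latter, listed first, was not called alone (adjusted p = 0.579).

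Set side by side, the groups did not overlap for 7 of the 34 genes, where 18.2% of all shared genes had no overlap. With a gap of at least 1 between the means as well, 5 of the 34 stood apart against 8.34% of all shared genes. These 5 were Cdh5, S1pr1, Nrp2, Erg and Lyve1, all lower in DMBA-treated tumours, and Vwf (lower) and Flt1 (higher) were the other two without overlap. Over all shared genes that stood apart, 828 were lower and 535 higher in the DMBA group. The median difference of the 28 vessel genes, DMBA minus untreated, was 0.17, beside -0.01 over all shared genes. With only features listed under RefSeq mRNAs, an alternative chosen after seeing the data, 3 of the 32 genes with such features in both tables stood apart, against 7.74% of all genes compared in that way, and Vwf and Angpt1 could not be compared. In that alternative the groups overlapped for Nrp2, Erg and Flt1. The share of the gaps between the groups that comes from the array design was not tested.

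**Figure D3:**
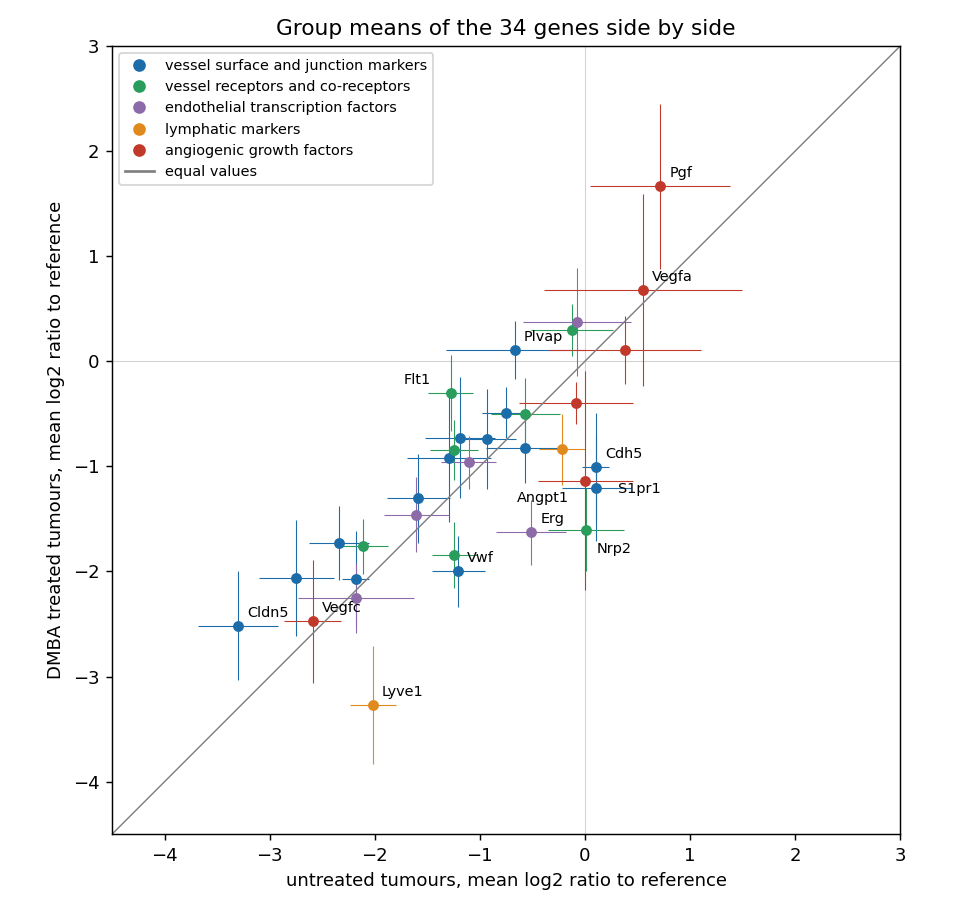
Mean log2 ratio to the reference of each of the 34 genes in the 6 untreated (horizontal axis) and 5 DMBA-treated tumours (vertical axis), with SD bars, coloured by role; the diagonal marks equal values. Most vessel genes lie near the diagonal and below 0 on both axes, and Cdh5, S1pr1, Nrp2, Erg and Lyve1 lie at least 1 below it, as does Angpt1, whose values overlapped.

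Tumours of a group differed in a way that many vessel genes shared. DMBA tumour 5 was the lowest of its 5 for 21 of the 28 vessel genes, 75%, while over all genes it was the lowest for 26.6%. DMBA tumour 2 was the highest for 17 of the 28, 60.7%, against 27.7% of all genes. The mean over the 28 vessel genes was -1.14, -0.90, -1.20, -1.20 and -1.65 in DMBA tumours 1 to 5. Among the 6 growth factors, DMBA tumour 5 was the highest for 4, Vegfa, Vegfb, Angpt2 and Pgf (66.7%, against 23.6% of all genes), and the lowest for the other two, Angpt1 and Vegfc. In untreated tumours 1 to 6 the vessel means were -1.10, -1.09, -1.09, -1.31, -1.37 and -1.07, a narrower range, and tumours 4 and 5 were the lowest for 11 and 8 of the 28 (39.3% and 28.6%), against 20.8% and 14.4% of all genes.

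Other gene lists differed between the tumours too, and not always in the same order. In DMBA tumours 1 to 5 the mean of 15 genes of a hypoxia list was 0.46, 0.78, 0.31, 0.13 and 1.32. It was highest in tumour 5 and next highest in tumour 2, where the vessel mean was highest. The mean of 9 fibroblast genes was -2.79, -2.86, -4.09, -3.55 and -4.21, and that of 12 pericyte and mural cell genes -0.79, -0.48, -0.85, -1.01 and -1.47, both lowest in tumour 5, though tumour 3 was nearly as low for the fibroblast genes. In untreated tumours the hypoxia list ran from -0.16, in tumour 3, to 0.82, in tumour 2, and the fibroblast list from -3.89, in tumour 4, to -2.93, in tumour 6. The part of hypoxia, stroma or RNA quality in the vessel values was not tested.

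**Figure D4:**
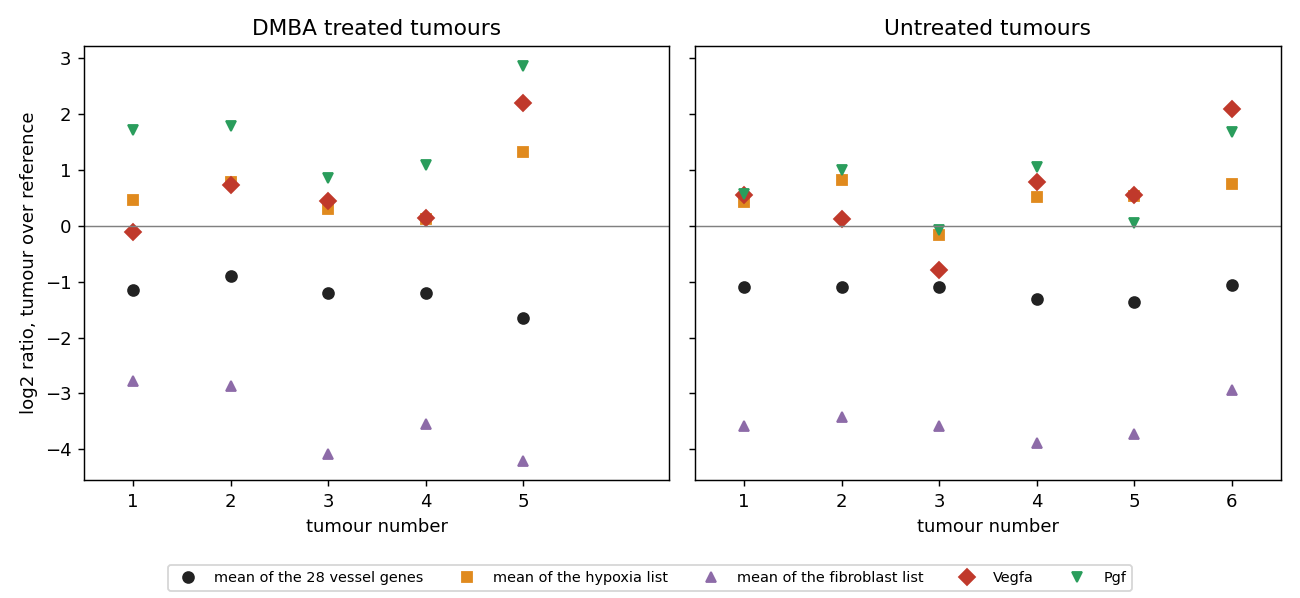
Log2 ratio to the reference (vertical axis) in each tumour (horizontal axis) of DMBA-treated (left) and untreated mice (right): mean of the 28 vessel genes, of the hypoxia list and of the fibroblast list, with Vegfa and Pgf. DMBA tumour 5 has the lowest vessel mean at -1.65 and the highest Vegfa and Pgf at 2.21 and 2.87.

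Genes of the same pathways outside the 34 were counted from lists chosen with earlier results of these data known. Of 25 other endothelial genes, 21 were lower and 2 higher in DMBA-treated tumours, and of the 24 measured in untreated tumours 18 were lower and 4 higher. The lowest was Thbd, thrombomodulin, an anticoagulant receptor of endothelium, at -4.24 ± 0.44 and -3.65 ± 0.32. The highest was Tm4sf1, a tetraspanin-like protein that epithelial tumour cells share, at 2.23 ± 0.81 and 2.68 ± 0.24. The mean of the whole list on single arrays lay between -1.64 and -0.85 in the DMBA group and between -1.31 and -1.04 in the untreated group, near that of the 28 vessel genes.

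Of 16 arterial, venous and tip cell genes, 7 were lower and 6 higher in DMBA-treated tumours, and 5 lower and 8 higher in untreated tumours. Hey1, a Notch target also expressed outside vessels, was highest at 3.86 ± 0.19 and 3.23 ± 0.13. Nr2f2, a factor of venous identity also found in stroma, was lowest at -1.20 ± 0.10 and -1.84 ± 0.47. Of 8 other lymphatic genes measured, 7 were lower and 0 higher in each group. The lowest called were Vegfd, another ligand of Flt4, at -2.89 ± 1.02 in DMBA-treated tumours, and Reln, reelin, secreted by lymphatic endothelium, at -3.37 ± 0.20 in untreated tumours.

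Mural and stromal lists lay low too. Of 12 pericyte and mural cell genes, 8 were lower and 1 higher in the DMBA group and 9 and 1 in the untreated group, with Des, the desmin of muscle and pericytes, lowest at -3.02 ± 0.38 and -3.87 ± 0.18, and Notch3, a receptor of vascular smooth muscle, highest at 0.58 ± 0.24 and 0.55 ± 0.26. All 9 fibroblast genes and 6 of 7 adipocyte genes were lower in both groups. Of 5 adhesion genes of activated endothelium, 2 were lower in the DMBA group and 3 in the untreated group, and Icam1, which leukocytes bind, was lowest at -1.74 ± 0.60 and -1.65 ± 0.43. Platelets share Vwf and Esam with endothelium, but neither gene is in the platelet list. Of the 6 platelet genes measured, 5 were lower in each group. Their mean on single arrays lay between -2.43 and -1.51 in the DMBA group and between -2.12 and -1.24 in the untreated group. Leukocyte and macrophage genes were mixed, with 5 lower and 1 higher of 10 in the DMBA group and 5 lower and 2 higher of 11 in the untreated group. Luminal epithelial genes were mostly the opposite, with 8 of 10 higher and 1, Krt19, lower in each group. The part of these cell types in the values of the 34 genes was not tested.

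Of the other angiogenic factors, 9 of 14 were lower and 3 higher in DMBA-treated tumours and 8 and 3 in untreated tumours. Apln, apelin, which stands in the tip cell list as well, was higher in both at 0.64 ± 0.40 and 0.49 ± 0.23. Angiogenesis inhibitors were largely lower too, 9 of 11 in the DMBA group, with 1 higher, and 8 of 10 in the untreated group. Tnmd, tenomodulin, a tendon protein that blocks vessel growth, was the lowest inhibitor at -4.90 ± 0.38 and -5.12 ± 0.12. Thbs1, thrombospondin-1, the 1 inhibitor called higher, was at 1.77 ± 0.57 in DMBA-treated tumours and has no value in the untreated table used here. In the hypoxia list, 6 of 15 genes were higher and 3 lower in DMBA-treated tumours. In untreated tumours 6 of 14 were higher and 4 lower. Besides hypoxia targets the list holds Hif1a, Epas1 and Vhl, which belong to oxygen sensing. In DMBA-treated tumours Hif1a and Epas1 were among the lower genes, at -0.42 and -0.73, and Vhl among the higher, at 0.49. Egln3, an oxygen-sensing hydroxylase, led the list at 3.17 ± 0.19 and 2.79 ± 0.30.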

How the data were processed

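The values used are the ratios of tumour over whole mouse reference RNA that the authors deposited, in 2 tables that were read as log2. The log base is not stated; values from -10.70 to 8.37 would be too wide for log10. The deposited log2 values have array medians between -0.013 and 0.008. Background correction, normalization and filters are not given in the sources used here. No signal values were used here, so precision can be judged only from the number of arrays (5 and 6).

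Features were named through the platform annotation (symbols checked through Entrez identifiers in a GRCm38.p6 gene table) and averaged per gene and array, which gave 19087 genes for the DMBA-treated and 16887 for the untreated table. The 34 genes had 98 and 35 features. The mean of each group was tested against 0 within its table by limma (version 3.58.1, R 4.3.3; an intercept model with lmFit and eBayes, two-sided), with Benjamini-Hochberg adjustment over all genes with at least 4 arrays and calls at an adjusted p under 0.05. The reference stands for 1 control sample, so its own spread is left out. Separate mice are not stated for the tumours. A p-value then weighs a mean against the spread between these arrays, part of which may be technical. A fold is the antilog of a mean log2 ratio, and ± is the SD over tumours.

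The step was run on simulated data with 200 genes shifted by 0.5, 1 or 2 (log2). At these shifts it recovered 4 of 70, 30 of 69 and 52 of 61 over the 19087 genes of the DMBA group. Over the 16887 of the untreated group it recovered 22 of 55, 56 of 66 and 77 of 79. Of the genes not shifted, 4 of 18887 and 8 of 16687 were called. Since 57.8% and 60.9% of genes were called in the data, the adjusted cutoff was stricter in the simulation. These counts are therefore not the recovery reached in the data.

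The 34 genes and the other lists were chosen with earlier results of these data known. All 34 are named. Of each other list only the called genes at either end of the list are named, with exceptions. Apln was chosen after its values were seen, and Hif1a, Epas1 and Vhl are named to describe the hypoxia list. Promoter motifs were chosen after a look at these promoters. Alternatives tried were the median over features, the first feature, quantile normalization, centring on the gene median, zeros as missing, a test against 1.5-fold, shared genes, platform symbols, trend and robust eBayes, each tumour left out, DMBA tumours 3 and 4 averaged, and, added after seeing the data, RefSeq mRNA features. Of the 19 samples in the design text, the others were not analysed here.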

Additional observations from a re-analysis of the deposited data

Results flagged for a closer look

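In 72 groups of values (34 genes and 2 lists' means in each set of tumours), 4 had a tumour far from the others of its group by Dixon's test, which chance gives in about 1 of 20 groups. DMBA tumour 2 was the highest for S1pr1 at -0.318, with the next at -1.30. DMBA tumour 5 was the lowest for Nrp2 at -2.30, with the next at -1.51, and the highest for Angpt2 at 0.657, with the next at 0.058. Untreated tumour 3 was the highest for Icam2 at -1.94, with the next at -2.17.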

How the results depend on the processing

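Under the alternatives run, genes of the 34 called lower stayed between 22 and 28 in the DMBA group and between 22 and 23 in the untreated group, apart from the test against 1.5-fold. Beside these counts, 51.3% to 61.3% of all genes were called in either direction in the DMBA group. In the untreated group the share was 54.9% to 62%. The test against 1.5-fold called 5082 and 4056 genes in all (26.6% and 24%), fewer by construction. It called 16 of the 34 and 15 of the 28 vessel genes lower in the DMBA group, and 18 and 17 in the untreated group. It called 1 of the 34 higher in the DMBA group and 0 in the untreated group. Those called higher numbered 2 in the DMBA group with arrays centred on the gene median. Leaving out each tumour gave 1 to 2 higher in the DMBA group and 0 to 3 in the untreated group. Of all genes, 51.3% to 55.8% and 54.9% to 59.1% were then called in either direction. RefSeq mRNA features alone left 3 of 32 genes apart between the groups; Vwf and Angpt1 have none in the untreated table. With the first listed feature the sign turned for Kdr in the DMBA group (0.0202) and Vwf in the untreated group (0.226), and with quantile normalization for Angpt1 in the untreated group (-0.00278). Leaving out each tumour turned the sign of Angpt2 in the DMBA group (-0.0303 to 0.174; below 0 without tumour 5) and, in the untreated group, of Angpt1 (-0.133 to 0.0956), Ets1 (-0.192 to 0.032), Nrp2 (-0.104 to 0.0832) and Vegfb (-0.283 to 0.0424). None of the turned values was called (adjusted p from limma between 0.126 and 0.99), and the cause was not tested. No paired analysis was possible because tumours were numbered in accession order and the groups lie in separate tables. Signal over background is not known here, which limits what ratios near 0 can show.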
